A study of Mus musculus with 24 samples.

Results

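The enzymes described here turn alcohols, aldehydes, ketones, esters and nitrogen or sulfur compounds into products that liver cells can use or excrete. Their genes were taken by name: every probe set with 1 gene symbol that begins with Adh, Aldh, Akr1 or Akr7, Cbr, Fmo, Ces or Aox followed by a family number, without Akr1d1. This gave 75 of 28815 probe sets and 71 of 19935 named genes. They comprised 7 alcohol dehydrogenases (Adh), 21 aldehyde dehydrogenases (Aldh), 14 aldo-keto reductases (Akr), 4 carbonyl reductases (Cbr), 5 flavin-containing monooxygenases (Fmo), 16 carboxylesterases (Ces) and 4 aldehyde oxidases (Aox). The probe set shared by Aldh3b2 and Aldh3b3 was left out because it had more than 1 symbol.

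Livers came from adult male mice of the C57BL/6 strain, supplied by Harlan-Olac, with no other genotype or agent in any group. The animals had been entrained for 4 weeks to 12 h of light and 12 h of dim red light, then moved to constant dim red light, and tissue was taken on the second cycle. Groups were CT00, CT03, CT06, CT09, CT12, CT15, CT18 and CT21 (circadian time in hours, CT00 being the start of the subjective day and CT12 that of the subjective night), each with 3 Affymetrix Mouse Gene 1.0 ST arrays, 24 in all, and with RNA extracted from each replicate liver separately. Harvest of 4 mice per time and 3 replicates per time are both mentioned in the labels, and the 8 times of the labels, not the 4 of the series text, were used.

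Alcohol dehydrogenases oxidise alcohols to aldehydes or ketones with NAD, and aldehyde dehydrogenases carry aldehydes on to acids. Aldo-keto and carbonyl reductases work in the reducing direction with NADPH, and many act on steroids, prostaglandins or reactive aldehydes. Flavin-containing monooxygenases add oxygen to nitrogen and sulfur atoms, carboxylesterases split esters, lipids among them, and the molybdenum-containing aldehyde oxidases oxidise aldehydes and nitrogen heterocycles. The mammalian liver is the main site of many of these reactions and runs a circadian clock whose output includes genes of drug metabolism.

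Each deposited value is on a log scale, taken here as log2, from which the probe set's own median across all 24 arrays had been subtracted. A value of 0 is therefore a gene's middle array and says nothing of its level, so genes were compared by the size and timing of their changes. Rounding of the deposited decimals still placed a probe set in a brighter class (original value 8 to 16) or a dimmer one (4 to 8), and 39 of the 71 enzyme genes fell in the brighter class. The hepatocyte markers tested, 9 of 9, were in the brighter class as well, and the 5 adipocyte, 5 exocrine pancreas and 6 Kupffer cell markers tested were all in the dimmer class. Some markers of other cell types were in the brighter class: 2 of 5 endothelial, 1 of 7 stellate cell and 1 of 2 red blood cell markers tested. The array medians lay between -0.02 and 0.01. Among the CT00 arrays the clock gene Nr1d1 spread widely, at -1.71, -0.78 and -0.17. In whole liver, fewer cells of a type and less RNA per cell cannot be told apart.

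A 24 h rhythm, tested with limma's moderated F of a cosine and a sine across all genes and an adjusted p under 0.05 (Benjamini-Hochberg), was found for 12 of the 71 enzyme genes (16.9%), where the share of all genes was 13.8%. Within the brighter class the count was 10 of 39 enzyme genes (25.6%) beside 33.6% of all genes of that class, and within the dimmer class 2 of 32 (6.25%) beside 10.8%. Fmo had 3 rhythmic genes of 5, Akr 3 of 14, Ces 3 of 16, Adh 1 of 7, Cbr 1 of 4, Aox 1 of 4 and Aldh 0 of 21. The fitted peak fell in the subjective night for 9 of the 12 (75%), where the share of all rhythmic genes was 42.1%. It fell in the subjective day for the other 3. Of all genes tested, 5.82% had a rhythm peaking in the night and 8.02% in the day. A window of 12 to 18 h held 8 of the 12 peaks (66.7%), and 24.8% of the rhythmic genes of the whole array. This window was not set in advance and covers the hours with most enzyme gene peaks. The choice favours the enzyme genes, so these 2 shares are no test of a difference. The median swing between fitted trough and peak was 1.38-fold over the 12 rhythmic enzyme genes and 1.26-fold over all rhythmic genes. Of the 12, Fmo2, Akr1c19 and Fmo5 swung by at least 1.5-fold, as did 423 of the 2758 rhythmic genes of the whole array (2.12% of all genes).

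**Figure D1:**
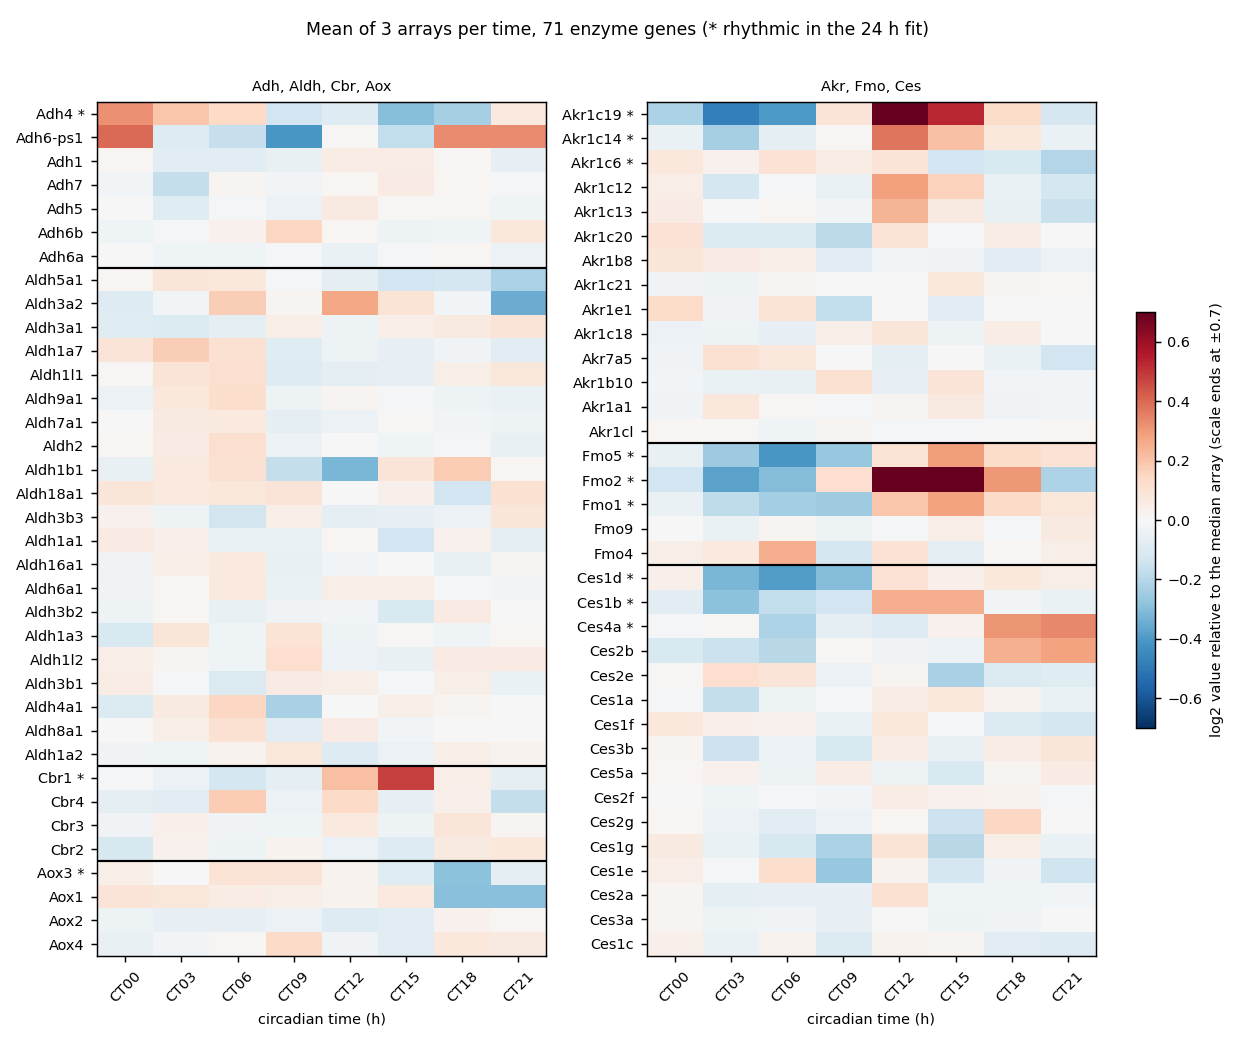
Mean log2 value relative to the median array (colour, 3 arrays per time, colour scale ending at 0.7 on either side) of the 71 enzyme genes by circadian time in hours, grouped by enzyme class, with an asterisk on the 12 rhythmic genes. Fmo2 and Akr1c19 are dark red at CT12 and CT15, and Adh4 is red at CT00 (0.32). The Aldh block has no asterisk, but Aldh3a2 at CT21 (-0.35) and Aldh1b1 at CT12 (-0.32) lie as far from 0.

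Over the 8 times in any shape (moderated F of the group means), 10 of the 71 genes were called, where the share of all genes was 10.9%. Of the 10, 9 were among the rhythmic genes. The exception was Akr1c13, called over the 8 times (adjusted p = 0.0357) but not in the 24 h fit (adjusted p = 0.229), as were 2.21% of all genes. Its 3 arrays at CT12 read 0.14, 0.26 and 0.30, all above every other array but 1 of CT00 at 0.16.

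The flavin-containing monooxygenases had the widest swing and the highest share of rhythmic genes. Fmo2, which oxidises thioethers and amines and is best known from lung, lay in the dimmer class and varied most of all 71 genes. The Fmo2 arrays read -0.14, -0.13 and -0.12 at CT00, -0.68, -0.45 and 0.01 at CT03, -0.44, -0.24 and -0.23 at CT06, and -0.03, 0.19 and 0.20 at CT09. They read 0.63, 0.87 and 1.13 at CT12, 0.85, 1.01 and 1.22 at CT15, 0.16, 0.24 and 0.50 at CT18, and -0.45, -0.18 and -0.01 at CT21. Every array of CT12 and CT15 lay above every array of the other 6 times. The fitted wave of Fmo2 had an amplitude (middle to peak) of 0.65 ± 0.07 on the log2 scale (SE, n = 24 arrays), a peak at 14.1 h ± 0.43 (SE) and a swing of 2.48-fold, with a limma adjusted p of 1.95e-06. The 250 bases upstream of Fmo2 in RefSeq (GRCm38.p6, chr1:162898759-162899008, minus strand) are shown with those of Akr1c19 (chr13:4233490-4233739, plus strand), because these genes had the 2 widest swings and peaked within the same hour. Neither window held an exact E-box (CACGTG), D-box (TTANGTAA) or ROR element (TAGGTCA) on either strand, so neither has capitals.
Fmo2: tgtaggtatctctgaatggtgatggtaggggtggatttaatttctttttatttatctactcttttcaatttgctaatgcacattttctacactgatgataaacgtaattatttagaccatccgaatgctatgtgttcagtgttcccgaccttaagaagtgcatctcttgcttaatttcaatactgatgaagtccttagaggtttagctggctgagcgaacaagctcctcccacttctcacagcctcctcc
Akr1c19: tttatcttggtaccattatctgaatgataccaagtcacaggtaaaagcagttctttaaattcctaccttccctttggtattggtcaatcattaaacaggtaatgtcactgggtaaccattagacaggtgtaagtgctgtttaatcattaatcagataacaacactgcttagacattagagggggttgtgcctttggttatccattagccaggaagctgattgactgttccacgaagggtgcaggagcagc

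Endothelial and Kupffer cell markers had their highest list mean at CT15, the time at which Fmo2 had its own. The endothelial list mean (log2) was 0.14 at CT15 and -0.12 at CT09, its lowest, with 1 of 5 called over the 8 times and 0 of 5 in the 24 h fit. The Kupffer cell list mean was 0.05 at CT15 and -0.08 at CT09, its lowest, with 0 of 6 called in either fit. Fitted peaks of the endothelial genes ran from 17.7 h ± 1.97 (SE) for Lyve1 through 22.4 h ± 1.62 for Kdr. They were 0.525 h ± 1.83 for Cdh5, 3.61 h ± 4.86 for Pecam1 and 5.21 h ± 3.56 for Stab2. With 0 of 5 rhythmic, these peaks do not show whether the genes shared a course. Stellate cell markers, with 1 of 7 rhythmic, had their highest list mean at CT00 and their lowest at CT12. The part of other cell types in the Fmo2 rhythm was not tested.

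Fmo5, which can insert oxygen beside a carbonyl group, read -0.30, -0.24 and -0.22 at CT03, -0.51, -0.46 and -0.26 at CT06, 0.17, 0.23 and 0.48 at CT15, and 0.01, 0.06 and 0.23 at CT21. No array from CT12 to CT21 was as low as any array from CT03 to CT09. Its amplitude was 0.30 ± 0.03 (log2, SE) with a peak at 17.1 h ± 0.41, a 1.52-fold swing (limma adjusted p = 1.1e-06). Fmo1, a broad drug-oxidising enzyme, peaked at nearly the same hour, 16.7 h ± 0.72, with a smaller amplitude of 0.25 ± 0.05 and a 1.41-fold swing (limma adjusted p = 0.00166). Fmo1 arrays read 0.09, 0.20 and 0.30 at CT12, and -0.13, -0.09 and 0.07 at CT00. Those times did not overlap, but Fmo1 was not called in the contrast between them. Fmo9 and Fmo4 were not called, with adjusted p of 0.723 for Fmo9 and 0.731 for Fmo4. Among the enzyme genes in RefSeq's order, Fmo4, Fmo1, Fmo2 and Fmo9 follow one another on chromosome 1, whereas Fmo5 lies on chromosome 3.

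**Figure D2:**
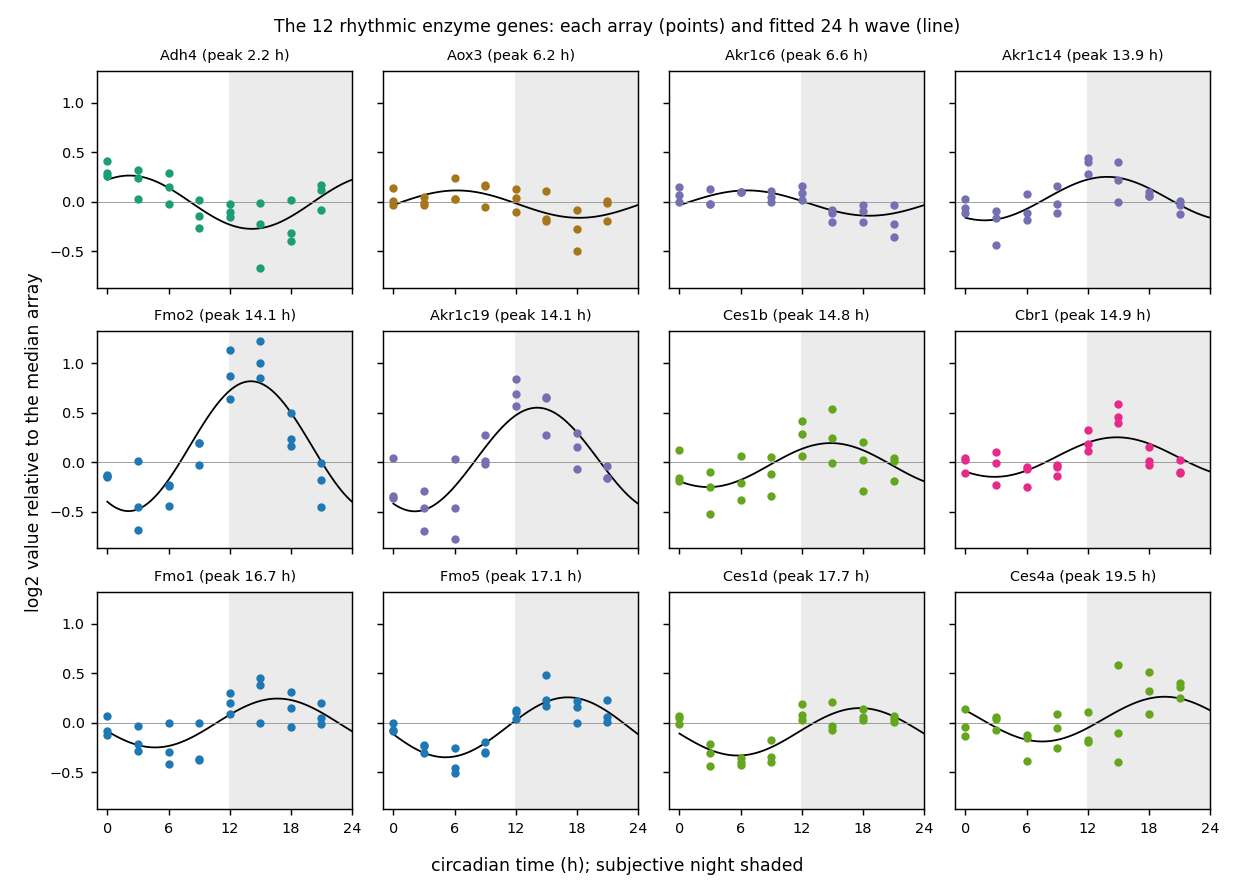
Log2 value relative to the median array against circadian time (h) for the 12 rhythmic enzyme genes, with 1 point per array and the fitted 24 h wave as a line, the subjective night shaded and the panels ordered by fitted peak. Adh4, Aox3 and Akr1c6 crest in the subjective day, and the other 9, from Akr1c14 at 13.9 h to Ces4a at 19.5 h, in the subjective night.

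Among the aldo-keto reductases, rhythm was found in the mouse Akr1c group on chromosome 13, whose enzymes reduce steroids and other carbonyl compounds. Akr1c19 arrays read 0.57, 0.69 and 0.84 at CT12, and -0.36, -0.34 and 0.04 at CT00. Those of CT15 were 0.28, 0.65 and 0.66, and those of CT03 were -0.69, -0.46 and -0.29. In both pairs the later time lay wholly above the earlier one. The fitted amplitude of Akr1c19 was 0.52 ± 0.06 (log2, SE), its peak 14.1 h ± 0.47 and its swing 2.06-fold (limma adjusted p = 8.06e-06). Akr1c14, a 3-alpha-hydroxysteroid dehydrogenase, read 0.28, 0.40 and 0.45 at CT12, and -0.11, -0.06 and 0.02 at CT00. It peaked at 13.9 h ± 0.67 with an amplitude of 0.22 ± 0.04 and a 1.35-fold swing (limma adjusted p = 0.00071). Akr1c6, a 17-beta-hydroxysteroid dehydrogenase, ran the other way, with its peak at 6.62 h ± 0.86 and a 1.19-fold swing (limma adjusted p = 0.00897). Its arrays read -0.35, -0.23 and -0.03 at CT21, and 0.10 at CT06 in all 3 animals. Akr1c6 missed the threshold without the CT06 arrays (adjusted p = 0.0502).

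Akr1c12 and Akr1c13 had their highest mean at CT12, like Akr1c19 and Akr1c14, but were not called in the 24 h fit, at an adjusted p of 0.118 for Akr1c12, which was called without CT00 replicate 3 (0.0488). Among the enzyme genes in RefSeq's order, Akr1c14, Akr1c18, Akr1c13, Akr1c19, Akr1c12 and Akr1c6 follow one another, so the cluster held rhythmic genes with night and day peaks and genes not called. These are close paralogs, and how far their probe sets read one another's transcripts is not known from the deposited values, so the assignment of a rhythm to 1 gene of the cluster is uncertain. The 11 Akr genes not called had swings of 1.01-fold to 1.19-fold.

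Of the carbonyl reductases, Cbr1, which reduces prostaglandins, quinones and other carbonyls, was rhythmic. Its arrays read 0.39, 0.45 and 0.59 at CT15, and -0.23, -0.01 and 0.10 at CT03. Every CT15 array was above every array of the other 7 times. The fitted peak of Cbr1 was at 14.9 h ± 0.83 with an amplitude of 0.20 ± 0.04 and a 1.32-fold swing (limma adjusted p = 0.00632). Without the CT15 arrays the adjusted p of Cbr1 was 0.181. Cbr2, Cbr3 and Cbr4 were not called, and their swings ran from 1.02-fold to 1.14-fold.

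A 12 h component added to the 24 h wave was called for 2 of the 71 genes, Cbr1 (adjusted p = 0.037) and Fmo2 (adjusted p = 0.0407), where the share of all genes was 0.577%. Its amplitude was 0.16 for Cbr1 and 0.26 for Fmo2 on the log2 scale. Leaving out all arrays of CT00, CT09, CT15, CT18 or CT21 left 0 genes called.

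Among the carboxylesterases, Ces1d, a triacylglycerol hydrolase of liver, had the firmest rhythm. Its arrays read 0.03, 0.06 and 0.14 at CT18, and -0.43, -0.39 and -0.35 at CT06. They were 0.01, 0.04 and 0.07 at CT21, and -0.39, -0.35 and -0.17 at CT09. All arrays of CT03, CT06 and CT09 lay below all arrays of the other 5 times. The cosine fit put the Ces1d peak at 17.7 h ± 0.56, with an amplitude of 0.24 ± 0.04 and a 1.39-fold swing (limma adjusted p = 8.68e-05). Its group means from CT12 to CT00 lay between 0.03 and 0.10 with no sharp crest, so the shape was a trough in the subjective day more than a peak. Ces1b peaked at 14.8 h ± 0.96 (1.36-fold, limma adjusted p = 0.0219) and Ces4a at 19.5 h ± 0.99 (1.37-fold, limma adjusted p = 0.0265). Ces1b arrays read -0.01, 0.24 and 0.54 at CT15, and -0.52, -0.25 and -0.09 at CT03. Ces4a arrays read 0.25, 0.36 and 0.40 at CT21, and -0.25, -0.05 and 0.09 at CT09. The 2 times did not overlap for either gene, yet neither contrast passed the threshold. Both calls were weak: Ces4a lost it in 11 of 41 alternative settings and Ces1b in 6 of 42. The call was lost for Ces1b without CT03 replicate 1 (adjusted p = 0.0611) or CT15 replicate 1 (0.0581), and for Ces4a without any 1 of CT06 replicate 1, CT09 replicate 3, CT18 replicates 1 and 3 and CT21 replicates 1 and 3 (0.0503 to 0.0628). The 13 Ces genes not called had swings of 1.02-fold to 1.28-fold, the widest in Ces2b with a fitted peak at 18.1 h (adjusted p = 0.115, and 0.0102 without CT15 replicate 1).

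The 7 Ces1 genes follow one another on chromosome 8 in the order of the enzyme genes. Ces1d and Ces1f had no upstream window (250 bases, RefSeq, GRCm38.p6) and were not searched. The other 5 Ces1 genes all held the exact D-box letters TTANGTAA on one strand or the other, the sequence bound by the clock-output factors Dbp, Tef and Hlf. Among 12 Ces genes with a window these 5 were the ones that held it. The share of all 27025 gene windows with these letters was 2.11%. These 5 genes are close paralogs, so their matches are not separate observations to weigh against that share. The stretches around each match are printed for comparison, 5′ to 3′ on the strand that reads TTANGTAA, with the matched letters in capitals. They lie at chr8:93048367-93048406 on the minus strand (Ces1a), chr8:93080001-93080040 on the minus strand (Ces1b), chr8:93131354-93131393 on the minus strand (Ces1c), chr8:93229752-93229791 on the plus strand and chr8:93229677-93229716 on the minus strand (Ces1e), and chr8:93337418-93337457 on the minus strand (Ces1g).
Ces1a: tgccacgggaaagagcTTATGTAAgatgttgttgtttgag
Ces1b: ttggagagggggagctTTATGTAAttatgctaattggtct
Ces1c: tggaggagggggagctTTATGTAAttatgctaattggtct
Ces1e, far match: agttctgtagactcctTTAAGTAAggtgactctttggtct
Ces1e, near match: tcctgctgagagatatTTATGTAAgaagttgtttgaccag
Ces1g: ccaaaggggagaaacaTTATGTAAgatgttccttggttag

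The Ces1b and Ces1c stretches share the letters and almost all of their surroundings. In the arrays Ces1b was rhythmic, whereas Ces1c, a carboxylesterase secreted into mouse plasma, had an amplitude of 0.02 ± 0.02 (log2, SE; limma adjusted p = 0.927). Ces1a, Ces1e and Ces1g were not called either, with adjusted p of 0.273, 0.718 and 0.703. A match in these windows therefore stood beside rhythmic and uncalled genes alike. The probe sets of these close paralogs may also read one another's transcripts.

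Adh4 was the rhythmic alcohol dehydrogenase, with a peak early in the subjective day. The enzyme oxidises retinol and long-chain alcohols. Adh4 arrays read -0.67, -0.22 and -0.02 at CT15, and 0.03, 0.24 and 0.32 at CT03. At CT12 they were -0.15, -0.10 and -0.02, and at CT00 they were 0.26, 0.29 and 0.41. The later time lay below the earlier one in both pairs without overlap, but the contrast of CT12 with CT00 was not called (limma adjusted p = 0.12). The amplitude of Adh4 was 0.27 ± 0.05 (log2, SE), its peak 2.18 h ± 0.68 and its swing 1.45-fold (limma adjusted p = 0.000804). Adh1, the main ethanol-oxidising enzyme of liver, swung by 1.08-fold and was not called (adjusted p = 0.0828). The pseudogene Adh6-ps1 had the widest swing among genes not called, 1.60-fold (adjusted p = 0.0652), and its CT15 arrays alone ran from -1.04 to 0.64. Adh6-ps1 was called without CT12 replicate 2 (adjusted p = 0.0303), CT15 replicate 1 (0.00832) or CT15 replicate 2 (0.0449). The genes Adh7, Adh1, Adh6a, Adh6b, Adh6-ps1, Adh4 and Adh5 follow one another on chromosome 3 in the order of the enzyme genes.

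The ROR element letters TAGGTCA, bound by the Ror and Rev-erb nuclear receptors of the clock, occurred on either strand in 2.27% of all upstream windows. Of the 57 enzyme genes with a window, Adh4 and Ces4a held them. The windows are printed with the match in capitals, for Adh4 at chr3:138415247-138415496, plus strand, and for Ces4a at chr8:105131550-105131799, plus strand, where the letters are read on the opposite strand.
Adh4: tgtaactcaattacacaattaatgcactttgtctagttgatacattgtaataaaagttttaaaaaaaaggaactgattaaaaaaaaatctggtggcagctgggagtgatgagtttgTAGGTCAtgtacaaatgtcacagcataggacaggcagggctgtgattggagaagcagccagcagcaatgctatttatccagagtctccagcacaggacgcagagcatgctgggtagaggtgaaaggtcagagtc
Ces4a: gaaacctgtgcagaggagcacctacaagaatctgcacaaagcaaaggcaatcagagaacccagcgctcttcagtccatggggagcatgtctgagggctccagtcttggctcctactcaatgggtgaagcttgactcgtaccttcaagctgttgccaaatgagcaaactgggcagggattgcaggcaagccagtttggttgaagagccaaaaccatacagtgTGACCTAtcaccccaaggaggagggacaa

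These 2 genes peaked at 2.18 h and 19.5 h. The E-box letters CACGTG stood in the windows of 4 of 57 enzyme genes, none of them rhythmic (Akr1c21, Aldh18a1, Aldh3a2 and Aox4), and in 6.05% of all windows. D-box letters stood in 6 of 57, the 5 Ces1 genes and Akr1c18. RefSeq windows were found for 10 of the 12 rhythmic genes, without Fmo1 and Ces1d.

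Of the aldehyde oxidases, Aox3 was rhythmic and lay nearest to the threshold among the genes called (adjusted p = 0.0329). Its arrays read -0.50, -0.27 and -0.08 at CT18, and 0.02, 0.03 and 0.24 at CT06. The times did not overlap, and the fitted peak was 6.23 h ± 1.02 with an amplitude of 0.14 ± 0.04 and a 1.21-fold swing. Aox3 lost its call in 13 of 42 alternative settings, 8 of them the omission of a single array of CT06, CT09, CT15, CT18 or CT21 (adjusted p up to 0.0817). Aox1, which precedes it on chromosome 1, read -0.51, -0.24 and -0.13 at CT18 and was not called (1.23-fold, fitted peak 7.04 h, adjusted p = 0.0823), but was called without CT06 replicate 1 (adjusted p = 0.0258). Aox2 and Aox4 were not called.

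No aldehyde dehydrogenase was called in the 24 h fit, although 5 of 21 had an unadjusted p under 0.05 in limma. Aldh5a1, succinate semialdehyde dehydrogenase, lay nearest to the threshold of all genes outside it, with a fitted peak at 5.38 h and a 1.19-fold swing (adjusted p = 0.0629). It read -0.43, -0.33 and 0.09 at CT21, and -0.02, -0.02 and 0.01 at CT09, so the times overlapped. Aldh3a2, which oxidises fatty aldehydes, had the widest swing of the class, 1.32-fold (adjusted p = 0.0786), and the other 20 swung less. Leaving out a single array brought 5 of the class past the threshold: Aldh5a1 without CT15, CT18 or CT21 replicate 1 (0.0132 to 0.0336), Aldh3a2 without CT06 replicate 1 or CT09 replicate 2 (0.0275 to 0.0395), Aldh1l1 without CT03 replicate 2 (0.0395), Aldh3a1 without CT12 replicate 1 (0.0257) and Aldh1a7 without CT15 replicate 2 (0.0345), all limma adjusted p. Aldh2, the mitochondrial enzyme that clears acetaldehyde, had its lowest mean at CT21, with arrays of -0.16, -0.09 and 0.09, and its highest at CT06, with arrays of 0.01, 0.10 and 0.23. These Aldh2 arrays overlapped. The median swing of the class was 1.06-fold, and that of all genes tested 1.07-fold.

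**Figure D3:**
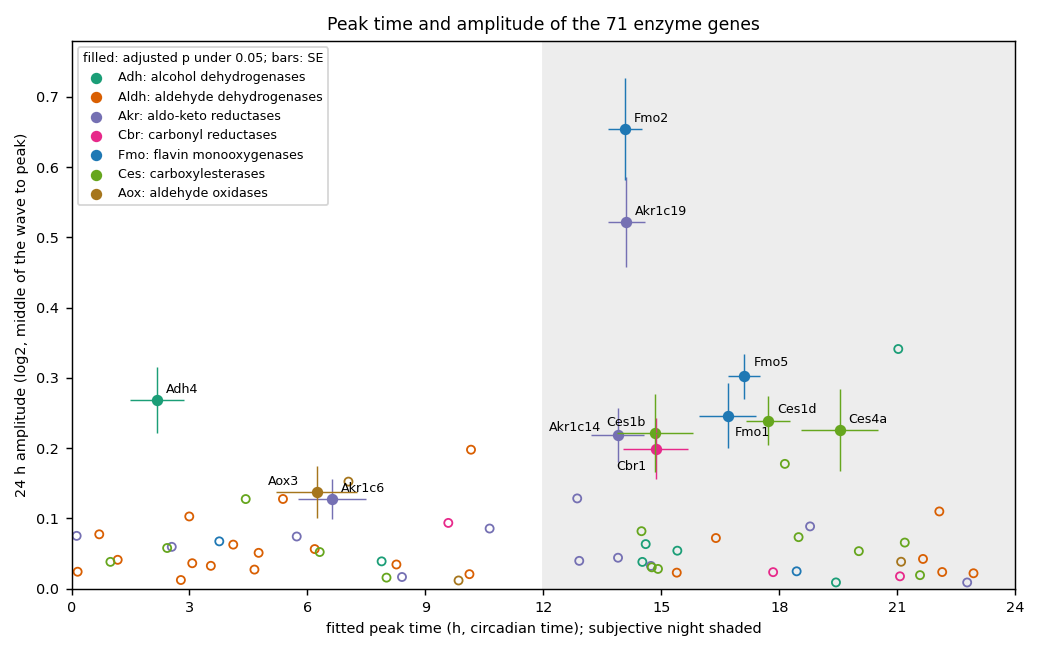
Amplitude of the fitted 24 h wave (log2, middle to peak) against fitted peak time (h) for the 71 enzyme genes coloured by class, with filled points for the 12 rhythmic genes and bars for 1 SE. Fmo2 and Akr1c19 stand highest, at 0.65 and 0.52, both near 14.1 h, and the Aldh points are all open.

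Times 12 h apart lie on separate arrays and were compared directly with limma contrasts. CT12 was compared with CT00, and 3 of the 71 genes were called, all higher at CT12 and none lower, where the share of all genes was 3.46% in either direction, 1.79% higher and 1.67% lower. They were Fmo2, higher by 1.01 ± 0.15 (log2 difference, SE; adjusted p = 0.00026), Akr1c19 by 0.92 ± 0.16 (adjusted p = 0.00143) and Akr1c14 by 0.42 ± 0.10 (adjusted p = 0.0146). Akr1c14 lost this call without CT00 replicate 1 or 2, or CT12 replicate 1 or 3 (limma adjusted p 0.0605 to 0.0839). Adh4, lower at CT12 (-0.41), was called without CT15 replicate 1 (0.0359), under array weights (0.0143) or quantile normalization (0.0196). It was also called in the brighter class alone (0.0466) and with the brighter-gene median as covariate (0.000443). Akr1c12 and Cbr1, higher at CT12, were called under array weights (0.0426 and 0.048).

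CT15 against CT03 gave the most calls, 9 of 71 (12.7%), where the share of all genes was 4.48%. Of these, 8 were higher at CT15 (2.68% of all genes) and 1, Adh4, was lower (1.8% of all genes). Fmo2 was higher by 1.40 ± 0.15 (log2 difference, SE), Akr1c19 by 1.01 ± 0.16 and Fmo5 by 0.55 ± 0.08, with adjusted p of 6.77e-06, 0.000647 and 0.000217 in that order. Adh4 differed by -0.50 ± 0.13 (adjusted p = 0.0352). The others higher were Cbr1, Fmo1, Akr1c14, Ces1d and Adh7, by 0.23 to 0.52. Adh7, a retinol-oxidising dehydrogenase best known from stomach, was called here only (adjusted p = 0.0468), with arrays of -0.02, 0.05 and 0.16 at CT15, and -0.21, -0.17 and -0.12 at CT03. Without CT03 replicate 1, 5 genes were called, and Fmo1, Akr1c14, Ces1d and Adh7 were not. Aldh1l1 without CT03 replicate 2 (limma adjusted p = 0.0269) and Ces2e without CT15 replicate 2 (0.0478) were called as lower at CT15. In the omissions of 1 array at a time, Adh7 lost its call in 16 of 24 (limma adjusted p up to 0.158), Fmo1 in 15 (up to 0.22), Adh4 in 4 (CT03 replicates 2 and 3, CT15 replicates 1 and 3, up to 0.15), Akr1c14 in 2 (CT03 replicate 1 and CT15 replicate 2, up to 0.0808) and Ces1d in 1 (CT03 replicate 1, 0.0503).

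CT18 against CT06 gave 4 calls, 3 higher and 1 lower at CT18, where the share of all genes was 4.64% in either direction, 1.43% higher and 3.21% lower. Fmo2 was higher at CT18 by 0.60 ± 0.15 (log2 difference, SE; adjusted p = 0.0238), Fmo5 by 0.53 ± 0.08 (adjusted p = 0.000415) and Ces1d by 0.46 ± 0.07 (adjusted p = 0.00071). Aox3 differed by -0.38 ± 0.10 (adjusted p = 0.034). Fmo2 lost this call without CT06 replicate 2 or 3 or CT18 replicate 3 (limma adjusted p 0.0559 to 0.102). Aox3 lost it without CT06 replicate 1, 2 or 3 or CT18 replicate 1 or 2 (limma adjusted p 0.0531 to 0.219). Omission of 1 array also added calls. Higher at CT18 were Akr1c19 without CT06 replicate 3 (0.0102), Ces4a without CT15 replicate 1 or 2 (0.0335 and 0.0105) and Ces2b without CT15 replicate 2 (0.0385). Lower were Aox1 without CT06 replicate 1 (0.0257) and Adh4 without CT18 replicate 3 (0.0484).

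CT21 against CT09 gave 2 calls, Fmo5 and Ces1d, both higher at CT21, where the share of all genes was 3.56% in either direction, 1.56% higher and 2% lower. Fmo5 was higher at CT21 by 0.36 ± 0.08 (log2 difference, SE; adjusted p = 0.0107) and Ces1d by 0.34 ± 0.07 (adjusted p = 0.00872). Fmo5 lost this call without CT21 replicate 1 (adjusted p = 0.0605) and Ces1d without CT09 replicate 1 (adjusted p = 0.0539). For every gene called in the 4 comparisons, the arrays of the 2 times did not overlap. The calls came from the same values, so this is no separate support. Ces1b at CT15 and CT03 did not overlap either, without a call.

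**Figure D4:**
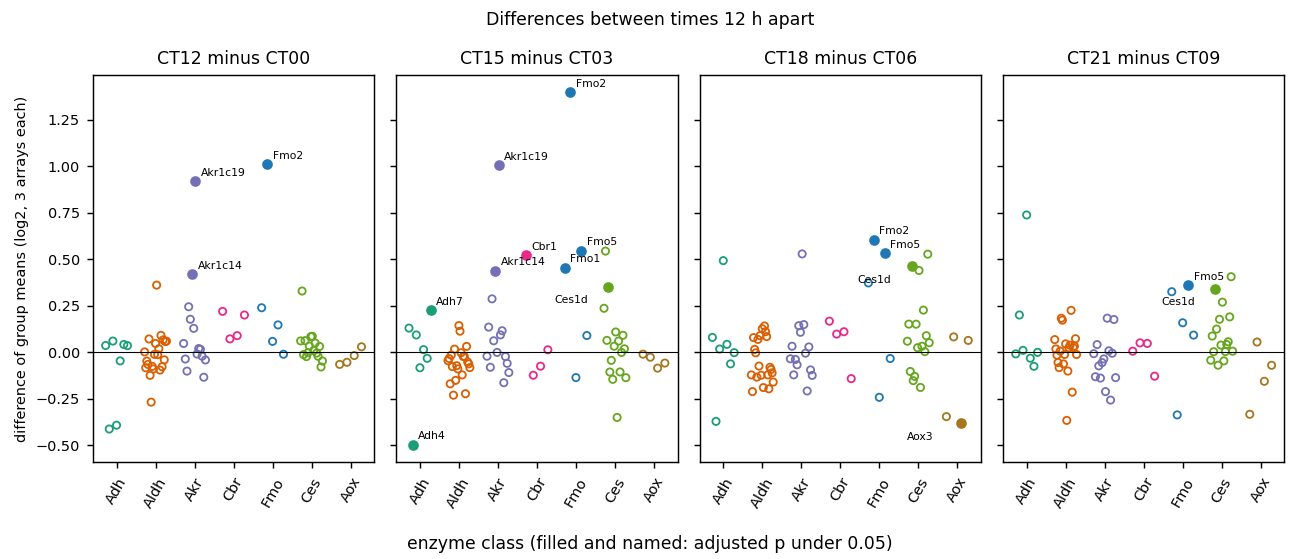
Difference of group means (log2, 3 arrays each) between times 12 h apart for the 71 enzyme genes by class, with filled and named points at an adjusted p under 0.05. The Fmo2 difference is 1.01, 1.40 and 0.60 in the first 3 panels, and Fmo5 and Ces1d are the filled points in the last.

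Genes that work beside these enzymes were counted from lists by function, in the same 24 h fit, whose share of all genes was 13.8%, and 33.6% in the brighter class. Of 7 genes of alcohol, acetate and hydrogen peroxide handling, 5 of them in the brighter class, 5 were rhythmic (71.4%), led by the lactate and acetate carrier Slc16a1 (22.8 h, 1.39-fold), the acetyl-CoA synthetase Acss2 (0.941 h, 1.68-fold) and the ethanol-oxidising Cyp2e1 (11.0 h, 1.15-fold). Of 24 other carbonyl and retinol reductases and glyoxalases, 16 of them in the brighter class, 6 were rhythmic (25%), led by the retinaldehyde reductase Dhrs3 (0.877 h, 1.77-fold), Dhrs9 (23.5 h, 2.17-fold) and Rdh11 (1.28 h, 1.92-fold). The other 3 rhythmic genes of this list, the methylglyoxal-clearing Glo1 (3.11 h, 1.38-fold), Rdh16 (7.37 h, 1.41-fold) and Rdh9 (11.2 h, 1.95-fold), peaked later in the subjective day.

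Of 15 other ester, amide and epoxide hydrolases, 13 of them in the brighter class, 4 were rhythmic (26.7%), led by the monoglyceride lipase Mgll (13.1 h, 1.35-fold), the kynurenine pathway enzyme Afmid (1.27-fold) and the cholesteryl ester hydrolase Nceh1 (1.25-fold), all 3 with a peak in the subjective night. Of 9 genes of the molybdenum cofactor and other molybdenum enzymes, 7 of them in the brighter class, 4 were rhythmic (44.4%). They were led by Mocos, which adds sulfur to the cofactor that Aox needs (1.65 h, 1.35-fold), xanthine dehydrogenase Xdh (12.7 h, 1.23-fold) and sulfite oxidase Suox (0.797 h, 1.28-fold). Of 18 electron carriers and transcription factors that act on drug metabolism, 11 of them in the brighter class, 12 were rhythmic (66.7%), led by Tef (12.0 h, 2.62-fold), Dbp (10.1 h, 7.73-fold) and Ppara (9.86 h, 1.71-fold). The list was drawn up to include the clock-output factors Dbp, Tef and Hlf, all rhythmic, so its share is not that of the other regulators alone. All genes named from these lists passed the test at limma adjusted p of 0.0123 or less.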

How the data were processed

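The deposited value table held 24 Affymetrix arrays of liver RNA, 3 per circadian time. The authors deposited values on a log scale, read here as log2, with base, background correction and normalization not given in the sources used here. Each row was centred on its median over the 24 arrays (medians 0 within 5e-07). No scanner files were used, so no background correction, other normalization from raw signal or detection call was made, and the number of arrays limits the precision. Symbols were taken from the annotation of the platform: 21780 probe sets had 1 symbol, 1605 several and 5430 none. RefSeq changed 0 symbols. Probe sets of a gene were averaged, giving 19935 genes; Adh6b, Aldh3b3 and Ces5a had several, none of them called.

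Models were fitted with limma 3.58.1 in R 4.3.3 (lmFit, eBayes) on all 24 arrays: a cosine and a sine of 24 h, the 8 group means, an added 12 h pair, and 4 contrasts 12 h apart, with Benjamini-Hochberg adjustment over all genes and a threshold of 0.05. Folds are 2 to the power of the log2 difference, and a swing is 2 amplitudes. Errors of amplitude and peak are delta-method SEs. The p-values of the 8 group means and of the contrasts rest on the spread between livers of a time. Those of the wave fits, and the SEs of amplitude and peak, also take in departures of the time means from the fitted wave. The scripts were tested on simulated data. Brightness classes came from the step size left by single-precision rounding, over 95% of a probe set's values. Upstream windows (RefSeq, GRCm38.p6) were searched on both strands for CACGTG, TTANGTAA and TAGGTCA in the 250 bases before the gene start. Of the 71 genes, 57 had a window, and 5 of these had several listed starts. Only the first listed start of a gene was searched. Gene order came from the same assembly.

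Every enzyme gene was counted by class. Those named with values were the genes called in each class, the nearest on each side of the threshold, those called over 8 times but not in the 24 h fit, those with a 12 h component, the 3 largest called differences of each contrast and the 3 genes of smallest p of each functional list; others named were chosen after their values were seen. The genes and lists were chosen with earlier results of these data known. Alternatives left out arrays or times, used array weights, the replicate number as a block, each probe set by itself, array medians or quantiles, other moderation, the brighter class alone, stricter thresholds and, chosen after seeing the data, omission of the 4 farthest arrays and the median of brighter genes as a covariate.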

Additional observations from a re-analysis of the deposited data

How the results depend on the processing

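The calls of Adh4, Akr1c14, Akr1c19, Fmo1, Fmo2, Fmo5 and Ces1d in the 24 h fit were kept in every alternative run (42 settings, 41 for Fmo2), with their fitted peaks moving by at most 1.1 h, and no named contrast changed sign. Cbr1 lost its call without CT15 and without the 4 farthest arrays (adjusted p = 0.0658). Leaving out 1 array at a time gave 10 to 14 rhythmic genes (with 12.3% to 14.4% of all genes). It gave 8 to 14 called over 8 times (with 9.15% to 12.9% of all genes) and 0 to 3 with a 12 h component. The contrasts of CT12, CT15, CT18 and CT21 had 2 to 4, 5 to 10, 2 to 6 and 1 to 3 calls. Leaving out a time gave 9 to 17 rhythmic genes (with 9.92% to 14.4% of all genes). A swing of at least 1.5-fold left 3.

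With the median of brighter genes as a covariate, chosen after seeing the data, 19 enzyme genes were rhythmic (26.8%, with 17.2% of all genes), 9 were called in CT18 against CT06, 4 in CT21 against CT09, and 0 had a 12 h component. Array weights gave 23 genes over 8 times (32.4%, with 24.6% of all genes), 5 with a 12 h component, and 6, 7 and 4 calls for CT12, CT18 and CT21. Omission of the 4 farthest arrays, also chosen after seeing the data, took out CT15 replicates 1 and 2, so its counts of calls are not given. No moderation gave 2 calls for CT18 against CT06 and 0 with a 12 h component. That component was called for 1 gene without CT06, without CT12, under quantile normalization and in the brighter class alone, and for 0 without CT00, CT09, CT15, CT18 or CT21. The cause of these changes was not tested.

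The labels give the replicate numbers no shared source, and they were not treated as pairs: 45 of 84 same-number pairs of arrays correlated above 0.1 (median 0.111, lowest -0.399, median of other pairs -0.0623). That 15 of 24 arrays correlated best with their own number is a hint from the data, not the design. With the number as a block, 16 genes were rhythmic (22.5%, with 15% of all genes) and 15 called over 8 times (21.1%, with 13.4% of all genes). In that 24 h fit 4 aldehyde dehydrogenases passed (Aldh5a1, Aldh3a2, Aldh1a7 and Aldh3a1, limma adjusted p 0.0283 to 0.0479). Scanner-level alternatives could not be run on centred values.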

Other observations

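Within some times the brighter enzyme genes moved together on 1 array. On CT21 replicate 3, 30 of the 39 brighter enzyme genes (76.9%) had the lowest of the 3 values of their time, where the share of the other brighter genes was 61.5%. Their median difference from the other 2 arrays of CT21 was -0.11 (log2), where that of the other brighter genes was -0.08. CT15 replicate 1 was low in the same way, with 26 of 39 (66.7%) lowest, where the share of the other brighter genes was 57.2%, and with the largest median difference of the 24 arrays, -0.16, where that of the other brighter genes was -0.09. CT06 replicate 3 and CT18 replicate 3 were high, with median differences of 0.14 and 0.12 from the other 2 arrays of their time, where those of the other brighter genes were 0.06 and 0.09. The part of these shifts in the rhythms reported for single genes was not tested beyond the settings that leave out these arrays or use the brighter-gene median as a covariate.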
